A study of Zea mays with 24 samples.

Results

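The maize genes mn1 (Zm00001d003776) and SWEET4c (Zm00001d015912), which act one after the other in bringing sugar into the growing kernel, were followed through 24 endosperm libraries. Both were chosen by identifier, and both identifiers were found in every library among 46430 features counted. They were selected with the IAA comparison already known, so their values in that comparison are given as a description with no test. The files do not pair nuclear identifiers with names, and the names mn1 and SWEET4c follow the rule by which the genes were chosen.

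Sugar reaches the kernel as sucrose, which leaves the mother plant at the base of the seed. The miniature1 gene mn1 encodes a cell wall invertase, also called INCW2, that splits sucrose into glucose and fructose outside the cells of the basal endosperm transfer layer. SWEET4c encodes a membrane transporter of the SWEET family that carries these hexoses onward into the endosperm. Loss of either gene in maize is known to give small, poorly filled seeds.

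Endosperm was taken at 15 days after pollination, and each library came from 5 to 10 pooled endosperms counted by MP3RNA-seq, an RNA-seq method that reads transcript ends. Wild type endosperm treated with IAA (indole-3-acetic acid, an auxin) was set against untreated wild type endosperm. A mutant of ZmICE1a, a bHLH transcription factor gene, was set against wild type without hormone in the genotype experiment. In the JA (jasmonic acid) experiment there were mutant endosperm with JA, mutant endosperm without JA, wild type endosperm with JA and wild type endosperm without JA. Every group held 3 libraries. The sources used here give no mutant allele, hormone dose or duration of treatment. They also do not say that replicates are separate plants, and each p-value is therefore a measure of library-to-library spread alone, which may be technical.

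For 2 of the 4 JA groups, with 6 libraries, the labels disagreed. Mutant without JA and wild type with JA are named here from the genotype field and the names given to the count tables. By their titles each of these 2 groups is the other one, and their treatment fields follow the titles. All labels agreed for mutant with JA and wild type without JA. The IAA libraries were the shallowest, at 432016 to 959735 counts each. Genotype libraries held 3109928 to 4875478 counts and JA libraries 839322 to 1917363.

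After IAA both genes were higher, mn1 by far more than SWEET4c. The level of mn1 was 25.4, 17.95 and 23.4 CPM (counts scaled for library size and composition, with TMM factors set over all 24 libraries) in the IAA-treated libraries, against 2.80, 4.26 and 1.43 CPM in the untreated ones. All treated libraries lay above all untreated ones, but these levels rest on 13, 12 and 17 counts with IAA, against 3, 4 and 1 counts without. The mean was 22.2 ± 3.84 CPM with IAA and 2.83 ± 1.42 CPM without (SD, n = 3 each). In the edgeR fit over 7687 features of the IAA libraries mn1 was 7.60-fold higher with IAA, a log2 fold change of 2.93 ± 0.59 (SE). mn1 passed the low-count filter of that fit through its treated libraries, and nothing about mn1 is read from the shares of features that follow. At least a 4-fold higher level with IAA was seen for 0.221% of the features fitted, 2.42% passed the edgeR threshold in either direction, and for 21% the 2 groups did not overlap.

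SWEET4c stood at 68.3, 59.8 and 78.5 CPM with IAA, against 35.5, 40.5 and 49.95 CPM without. The 2 groups did not overlap, as for 21% of all features fitted, and the counts behind them were 35, 40 and 57 with IAA, against 38, 38 and 35 without. Its mean was 68.9 ± 9.36 CPM with IAA and 42.0 ± 7.35 CPM without (SD, n = 3 each), a log2 fold change of 0.80 ± 0.25 (SE), or 1.74-fold. The raw counts of SWEET4c differed little, and the higher level came with smaller treated libraries, which held 432016 to 608544 counts against 609023 to 959735 in the untreated ones. Depth and treatment cannot be told apart in this experiment.

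**Figure D1:**
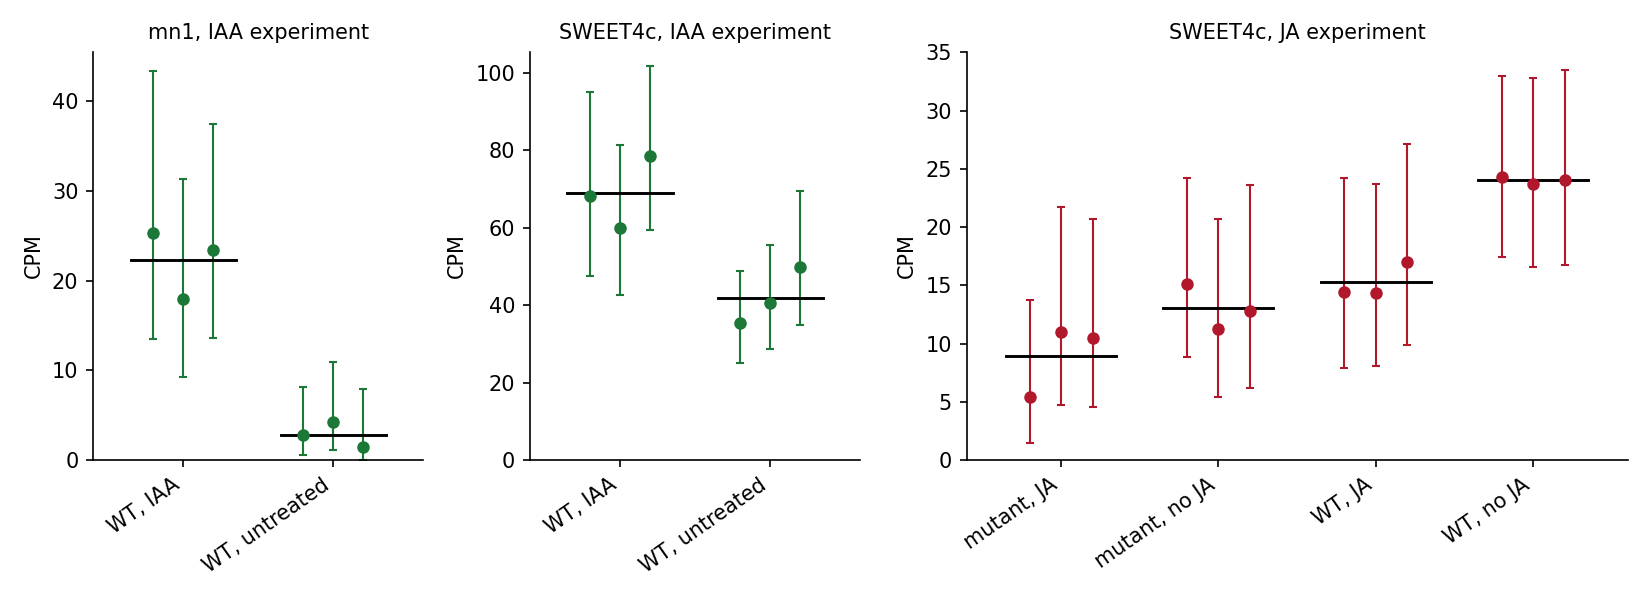
Levels of mn1 and SWEET4c in the hormone experiments, in CPM on a linear axis, with 1 point per library, a 95% exact Poisson interval for counting error around each point and a black bar at the group mean. The treated libraries of mn1 lie between 17.95 and 25.4 CPM, above the untreated ones at 1.43 to 4.26 CPM, and in the JA experiment SWEET4c is highest in wild type without JA (24.02 CPM) and lowest in mutant with JA (8.95 CPM).

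The balance between the 2 genes differed with IAA as well. It comes from the same counts as the levels above and restates those selected values as a share. It is a description with no test, and other pairs of genes were not looked at. Of the counts that fell on either gene, mn1 took 24.1% in the IAA-treated libraries (42 counts of mn1 and 132 of SWEET4c, exact 95% binomial interval 18.0% to 31.2%), against 6.72% in the untreated ones (8 counts of mn1 and 111 of SWEET4c, interval 2.95% to 12.8%). By library the share was 27.1%, 23.1% and 23.0% with IAA, against 7.32%, 9.52% and 2.78% without, so the groups did not overlap. These intervals cover counting error only. Between experiments, the share after IAA stood near that of the genotype experiment, where it was 24.4% in the mutant and 22.9% in wild type, with libraries from 21.8% to 26.01%. The untreated share stood near those of the JA experiment, which were 9.09% in mutant with JA, 7.50% in mutant without JA, 6.12% in wild type with JA and 5.88% in wild type without JA. The JA shares rest on 2 to 7 mn1 counts per group, and their intervals reach up to 29.2% in mutant with JA and 11.7% in wild type without JA.

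**Figure D2:**
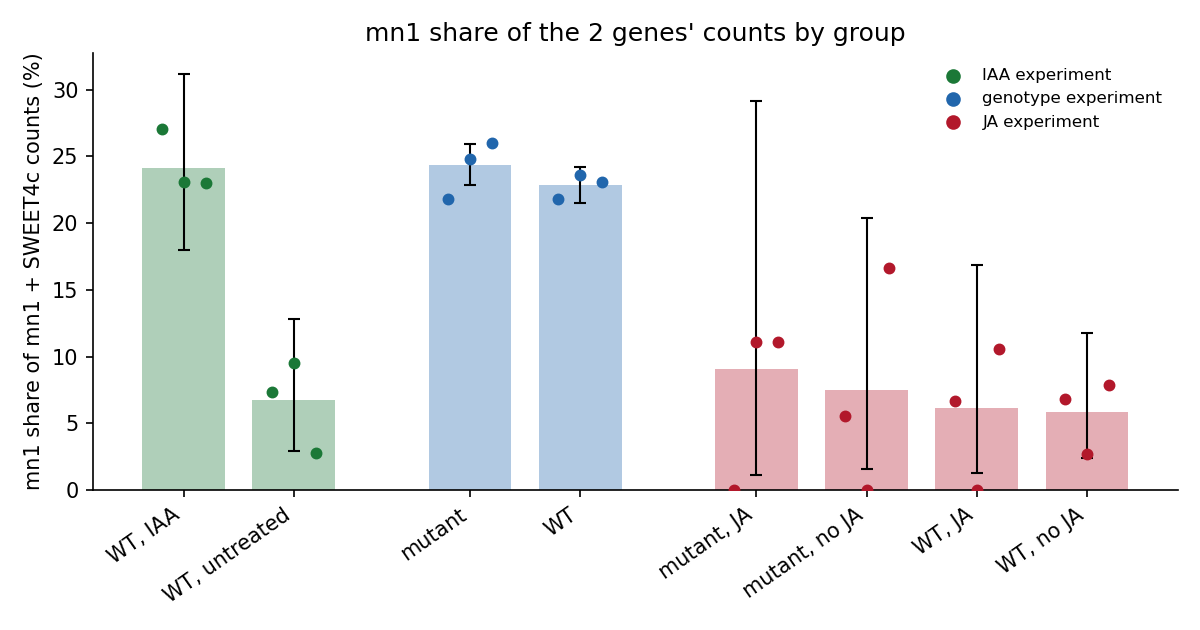
Share of mn1 among the summed counts of mn1 and SWEET4c, in percent, with bars for the pooled counts of each group, exact 95% binomial intervals and 1 point per library. IAA-treated wild type (24.1%) and both groups of the genotype experiment (24.4% in the mutant, 22.9% in wild type) stand above untreated wild type of the IAA experiment (6.72%) and the 4 JA groups (5.88% to 9.09%).

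Both genes were highest in the genotype experiment and lowest in the JA experiment. For mn1 the order of the group means was mutant (59.5 CPM) and wild type (55.0 CPM) of the genotype experiment, IAA-treated (22.2 CPM), untreated (2.83 CPM), and then wild type without JA (1.50 CPM), mutant without JA (1.15 CPM), wild type with JA (1.01 CPM) and mutant with JA (0.895 CPM). The ranges of neighbours overlapped at the top, between the 2 genotypes, and at every step from untreated wild type of the IAA experiment downward. The steps around IAA-treated wild type did not overlap. For SWEET4c the order was mutant (186.3 CPM) and wild type (185.9 CPM), IAA-treated (68.9 CPM), untreated (42.0 CPM), wild type without JA (24.02 CPM), wild type with JA (15.3 CPM), mutant without JA (13.1 CPM) and mutant with JA (8.95 CPM). Here neighbouring ranges overlapped between the 2 genotypes of the genotype experiment and between wild type with JA and mutant without JA, and at no other step. In contrasts within an experiment 19.9% to 30.5% of all features fitted had groups that did not overlap. For steps between experiments that share was not computed, so nothing is read from the lack of overlap for either gene.

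**Figure D3:**
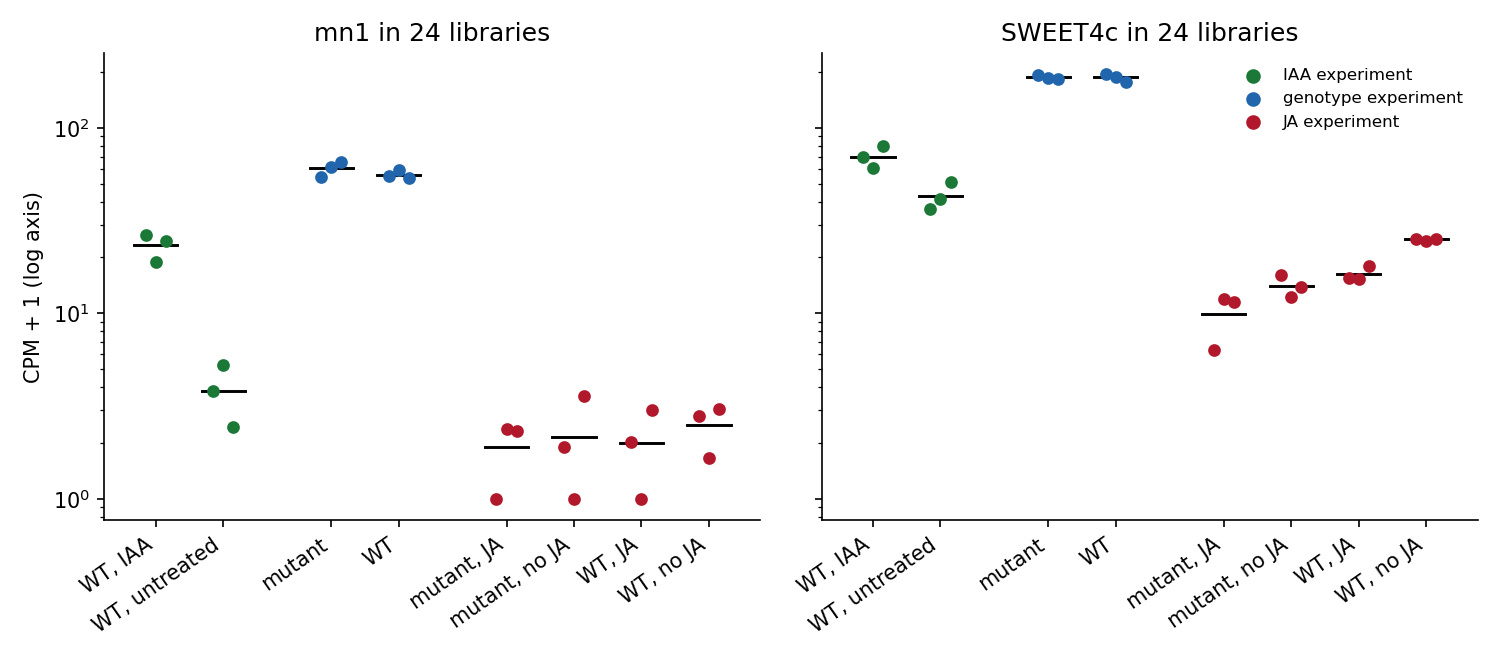
Level of each gene in 24 libraries as CPM + 1 on a log axis, with points for libraries, black bars for group means and colours for the experiments. The genotype experiment is highest for both genes (52.9 to 64.5 CPM for mn1 and 176.1 to 193.6 CPM for SWEET4c), and mn1 is at 0 to 2.57 CPM in the JA experiment.

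Wild type endosperm that received no hormone was measured in all 3 experiments, and its levels of both genes differed between them. Set against wild type of the genotype experiment, untreated wild type of the IAA experiment was 16.2-fold lower for mn1 (log2 fold change −4.01 ± 0.33 SE) and 3.94-fold lower for SWEET4c (−1.98 ± 0.15), from 1 edgeR fit over all 24 libraries. Wild type without JA was 33.6-fold lower for mn1 (−5.07 ± 0.31) and 7.37-fold lower for SWEET4c (−2.88 ± 0.15) than wild type of the genotype experiment. Differences of at least 4-fold downward were seen for 12.4% of 14839 features in the contrast of the IAA experiment and for 6.09% in that of the JA experiment. SWEET4c, at 3.94-fold, did not reach that mark in the contrast of the IAA experiment. The median of all features in these contrasts was −0.15 and −0.06 on the log2 scale. Experiment, depth and any difference in handling cannot be told apart here, so no test is given. mn1 entered this fit through the libraries where it was abundant. In whole-tissue RNA fewer cells of a type and less RNA per cell cannot be told apart, and markers of the basal transfer layer or of other kernel tissues could not be matched to identifiers, so the cell makeup of the libraries was not tested.

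In the genotype experiment, which asks which genes differ between the ZmICE1a mutant and wild type, neither gene passed the test. mn1 was at 53.3, 60.8 and 64.5 CPM in the mutant, against 54.0, 58.1 and 52.9 CPM in wild type. The ranges overlapped, and the log2 fold change was 0.14 ± 0.08 (SE; edgeR quasi-likelihood test, 2-sided, Benjamini-Hochberg adjusted p = 0.357 over 17841 features). SWEET4c was at 191.0, 184.4 and 183.4 CPM in the mutant, against 193.6, 187.9 and 176.1 CPM in wild type. Its log2 fold change was 0.02 ± 0.05 (edgeR adjusted p = 0.876). The deep libraries, with 196 to 327 counts of mn1 and 702 to 1057 of SWEET4c each, held these differences to narrow 95% intervals, from 0.983-fold to 1.23-fold for mn1 and from 0.943-fold to 1.09-fold for SWEET4c. Of all features tested 6.19% were called in either direction, and 0 of the 2 genes was among them, at an unadjusted edgeR p of 0.092 for mn1 and 0.674 for SWEET4c. DESeq2 called 0 of them as well.

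In the JA experiment SWEET4c was highest in wild type without JA and lowest in mutant with JA. It was at 5.37, 11 and 10.5 CPM in mutant with JA, at 15.1, 11.2 and 12.8 CPM in mutant without JA, at 14.5, 14.4 and 17.0 CPM in wild type with JA, and at 24.3, 23.7 and 24.1 CPM in wild type without JA. Wild type without JA lay above all other libraries and mutant with JA below all others. The counts were 4, 8 and 8 in mutant with JA, 17, 10 and 10 in mutant without JA, 14, 15 and 17 in wild type with JA, and 41, 36 and 35 in wild type without JA.

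SWEET4c fell in mutant with JA relative to wild type without JA, the 2 groups whose labels all agree. Its mean was 8.95 ± 3.11 CPM in mutant with JA and 24.02 ± 0.323 CPM in wild type without JA (SD, n = 3 each). The log2 fold change was −1.28 ± 0.28 (SE; edgeR adjusted p = 0.00788 over 11265 features), with a 95% interval of −1.87 to −0.69. Counting error alone gives a wider interval, as described below. All 3 mutant libraries with JA lay below all 3 wild type libraries without it, and 30.5% of features had groups that did not overlap in this contrast. In this contrast 10.2% of features were called in either direction and 4.94% lower. The call was lost without replicate 1 of mutant with JA, the library with 4 counts, where the log2 fold change was −1.025 (edgeR adjusted p = 0.0506). The contrast joins genotype and treatment, and it cannot say which of them the difference goes with.

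Each step between these groups was in the same direction and did not pass the test alone. With JA against without JA in wild type, SWEET4c averaged 15.3 ± 1.48 CPM with JA and 24.02 ± 0.323 CPM without (SD, n = 3 each), a log2 fold change of −0.58 ± 0.23 (SE; edgeR adjusted p = 0.241), where 2.73% of features were called. In the mutant the same contrast gave 8.95 ± 3.11 CPM with JA and 13.1 ± 1.96 CPM without, a log2 fold change of −0.47 ± 0.37 (edgeR adjusted p = 0.587), where 3.67% were called. Mutant against wild type without JA gave 13.1 ± 1.96 CPM in the mutant and 24.02 ± 0.323 CPM in wild type, and this was the step nearest to the threshold at −0.81 ± 0.24 (edgeR adjusted p = 0.0666, unadjusted p = 0.00425), where 5.2% of features were called. Mutant against wild type with JA gave 8.95 ± 3.11 CPM in the mutant and 15.3 ± 1.48 CPM in wild type, a log2 fold change of −0.70 ± 0.34 (edgeR adjusted p = 0.354), where 2.91% were called. These 4 contrasts share libraries and are not independent of each other. If the titles were followed in place of the count table names, the JA and genotype steps from wild type without JA would trade places, as would the 2 steps to mutant with JA.

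The groups of SWEET4c did not overlap in any of those contrasts, which was also seen for 19.9% to 30.5% of all features tested. The SD of wild type without JA, 1.35% of its mean, was far below the 16.4% that counting error alone gives for its 35 to 41 counts, so the spread of that group understates its error. The SE and p of each contrast with that group may be too small for the same reason. Summed depth had the same order over the 4 groups as SWEET4c, with 847205 to 857113 counts per library in mutant with JA, 839322 to 1353622 in mutant without JA, 1170331 to 1319107 in wild type with JA and 1660718 to 1917363 in wild type without JA. Its part in the differences was not tested.

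No dependence between genotype and JA was shown for SWEET4c, and neither was shown to have an effect alone. The JA response of the mutant minus that of wild type was 0.11 ± 0.49 on the log2 scale (edgeR adjusted p = 0.971), with a 95% interval of −0.93 to 1.15 (0.526-fold to 2.23-fold). This contrast is the same whichever labels are followed, and 0.63% of features were called in it.

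**Figure D4:**
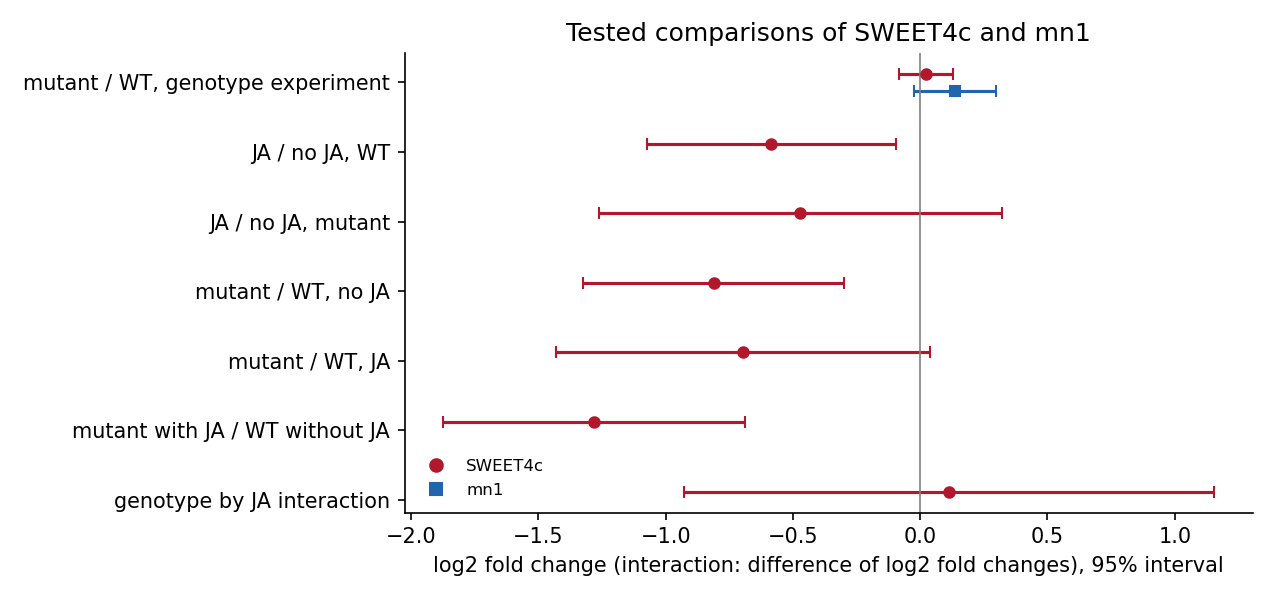
Log2 fold changes from the edgeR fits with 95% intervals, circles for SWEET4c and squares for mn1, with the interaction drawn as a difference of log2 fold changes. Mutant with JA against wild type without JA, at −1.28, is the contrast whose adjusted p passed the threshold, and both genes lie near 0 in the genotype experiment.

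mn1 was close to the limit of detection throughout the JA experiment. The 12 libraries held 15 counts of mn1 in all, at most 3 in 1 library and 0 in 3 libraries. Its level was 0, 1.38 and 1.31 CPM in mutant with JA, 0.891, 0 and 2.57 CPM in mutant without JA, 1.03, 0 and 2.00 CPM in wild type with JA, and 1.78, 0.658 and 2.06 CPM in wild type without JA. All groups overlapped. Mutant with JA held 2 counts and wild type without JA 7, a ratio of 0.596 with an exact 95% interval for counting error of 0.0604 to 3.13. The low-count filter left mn1 out of the JA fit, so it has no main test there. With JA against without JA in wild type mn1 had 3 counts with JA and 7 without, and the scaled ratio of 0.663 had limits of 0.111 and 2.90. A difference as large as that of SWEET4c was not detectable at this depth.

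The genotype effect without JA was then compared between the JA and the genotype experiments in 1 fit of all 24 libraries. This comparison uses mutant without JA as named from the genotype field and the count table names. By the titles that group is wild type with JA, and the comparison was not run with the titles followed. For SWEET4c the log2 fold change of mutant over wild type was lower in the JA experiment by −0.82 ± 0.24 (SE; edgeR adjusted p = 0.122 over 14839 features, unadjusted p = 0.00229), which did not pass the threshold. mn1 entered this fit through libraries where it was abundant, and held 3 counts in mutant without JA and 7 in wild type without JA. Its value is therefore a description, and no test is read from it. For mn1 the difference was −0.53 ± 0.91 (SE), with an interval of −2.41 to 1.35. Its size rested on single libraries of mutant without JA, since it was −0.01 without replicate 2 (0 counts of mn1) and −1.575 without replicate 3 (2 counts). Of all features 0.93% were called in this contrast.

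Features with a pattern like that of each gene were ranked by Pearson's r of log2(CPM + 1) over the 24 libraries, after the mean of each experiment was taken out, among 13726 features with a mean of at least 5 CPM. The r values describe libraries that share depth and treatment, and have no p. Most like mn1 were Zm00001d046915 (r = 0.862) and Zm00001d026239 (r = 0.858), features left unnamed here. mn1 was chosen with the IAA comparison known, and held at most 3 counts per library in the JA experiment. Its r values therefore take in the selected IAA levels, and the IAA levels of the like features add no support. Over the 4 JA groups Zm00001d026239 averaged 5.39 to 6.31 CPM. Zm00001d046915 averaged 25.7 ± 5.53 CPM with IAA and 10.7 ± 3.09 CPM without (SD, n = 3 each), and Zm00001d026239 held 22 counts with IAA, against 1 without. With IAA Zm00001d046915 was not called (edgeR adjusted p = 0.171), and Zm00001d026239 was not in that fit. Most like SWEET4c were Zm00001d006580 (r = 0.843) and Zm00001d000524 (r = 0.839). Zm00001d006580 averaged 11.6 ± 5.49 CPM in mutant with JA and 26.1 ± 6.05 CPM in wild type without JA (SD, n = 3 each), and the more abundant Zm00001d000524 averaged 479.2 ± 43.2 CPM in mutant with JA and 667.9 ± 43.4 CPM in wild type without JA. These values are from contrasts where the features resembled the gene. In mutant with JA against wild type without JA, Zm00001d006580 was not called (edgeR adjusted p = 0.0671) and Zm00001d000524 was (edgeR adjusted p = 0.0203). Both were picked for their likeness to SWEET4c, so these results add no support. In the genotype experiment Zm00001d000524 was called higher in the mutant (log2 fold change 0.17, edgeR adjusted p = 0.0253), where SWEET4c was not called. The other like features were not called there. Since experiment means were taken out, the levels across experiments need not be alike. Zm00001d046915 averaged 22.4 CPM in wild type without JA and 36.8 CPM in wild type of the genotype experiment, where mn1 averaged 1.50 CPM and 55.0 CPM. The r between mn1 and SWEET4c themselves was 0.548 by the same measure.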

How the data were processed

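The deposited values are raw counts per feature, 1 table per library with the same 46430 features, and were used as deposited. Trimmomatic 0.39 and HISAT2 2.2.1 are named in the submitters' processing notes. Which counting program, genome build, annotation and strand setting were used, and whether duplicates were removed, was not stated in the sources used here. Where reads of near-identical or overlapping genes were placed is therefore unknown.

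Genes were fitted over the whole table with edgeR 4.0.16 in R 4.3.3 (TMM scaling, filterByExpr at a minimum count of 10, quasi-likelihood tests, 2-sided, Benjamini-Hochberg adjusted p under 0.05). The IAA and genotype experiments were fitted with 6 libraries each, the JA experiment with 12 libraries in 4 groups, and comparisons across experiments with 24. The standard error is the absolute log2 fold change over the root of the F statistic, widened where needed to match the p. Levels use 1 TMM scaling over 24 libraries. Alternatives were DESeq2 1.42.0, RLE scaling, other filters, library sizes without the 50 most abundant features, a replicate block, the 2 groups alone, exchanged JA titles and leaving out each library. The code was tested on simulated data.

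The genes, lists and comparisons were chosen with earlier results of these data known. The contrasts of untreated wild type between experiments were added after the data were seen. Features named besides the 2 genes are the 2 most like each, by the rule given in the text, and 1 feature that checks the genotype, with the largest absolute log2 fold change among those called in the genotype experiment with at least 10 CPM in 1 group and no overlap. The level of ZmICE1a itself is not reported here, since no identifier is paired with it. A RefSeq table (Zm-B73-REFERENCE-NAM-5.0) named 0 of 44146 nuclear identifiers, so the lists of sugar import genes and tissue markers had no matched member besides the 2 genes, and no sequence is printed. Within groups, chi-square per degree of freedom between replicates was 1.76 to 6.44 over the 24 within-group pairs, so no replicate was a copy of another in its group. Poisson and binomial intervals cover counting error only.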

Additional observations from a re-analysis of the deposited data

How the results depend on the processing

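Of 240 alternative values for 18 results, 1 lost a call, 5 untested values moved by more than the spread between replicates, and 0 reversed a called direction. Uncalled values near 0 changed sign with 1 library left out, SWEET4c in the genotype experiment in 2 of 6 cases (down to −0.02) and its interaction in 2 of 12 (down to −0.05). The fall of SWEET4c in mutant with JA against wild type without JA ran from −1.36 to −1.28 on the log2 scale over 7 alternatives (edgeR or DESeq2 adjusted p up to 0.0397), and from −1.45 to −1.025 with each of the 6 libraries left out, where 5 of 6 kept the call and the one without replicate 1 of mutant with JA did not. The higher mn1 with IAA ran from 2.84 to 2.94 over 5 alternatives and from 2.68 to 3.28 with libraries left out, and that of SWEET4c from 0.71 to 0.80 and from 0.66 to 0.93. Those that moved were SWEET4c in untreated wild type against the genotype experiment, −2.96 to −2.94 in 4 alternatives of the JA contrast (−2.88 as reported) and −2.16 without a low-count filter in the IAA contrast (−1.98 as reported). The cause was not tested.

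Replicate numbers did not pair the libraries, since same-numbered libraries deviated from their group means with correlations of −0.09 to 0.10 in the JA, −0.04 to 0.05 in the IAA and −0.08 to −0.02 in the genotype experiment. Following the titles adds no value within the JA experiment beyond the exchange of contrasts described. The comparison of genotype effects between the JA and the genotype experiments was not run with the titles followed. With the replicate block SWEET4c in mutant with JA against wild type without JA was −1.29 (edgeR adjusted p = 0.0178), and no call changed. For mn1 in the JA experiment the other alternatives gave no value, because the filter left it out. Without the low-count filter mn1 in that contrast was −0.63 ± 1.36 (SE; edgeR adjusted p = 0.918). mn1 has at most 3 counts per library in the JA experiment, which limits its values there.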

Other observations

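Whether the genotype experiment bears on the disputed JA labels was looked at through the nuclear genes called there at a log2 fold change of at least 1, a restriction made after the data were seen. Of 26 such genes higher in the mutant that were also fitted in the JA experiment, 13 were higher and 13 lower in mutant without JA against wild type without JA, with a median log2 fold change of 0.02. In mutant with JA against wild type with JA 14 were higher and 12 lower, with a median of 0.09. Of 32 genes lower in the mutant, 18 were lower and 14 higher in each of these contrasts. In wild type with JA against wild type without JA, 13 of the 26 and 16 of the 32 were higher. In mutant with JA against mutant without JA, 9 of the 26 and 15 of the 32 were higher. By the titles these last 2 contrasts are the ones between genotypes. Over all features, those outside the nuclear gene models included, the 44 higher in the mutant gave another picture. Of these, 31 were higher in mutant without JA against wild type without JA (median log2 fold change 0.75), 21 in mutant with JA against wild type with JA (median −0.02) and 24 in wild type with JA against wild type without JA (median 0.02). In mutant with JA against mutant without JA, 12 of the 44 were higher and 32 lower (median −0.31). Features with identifiers that begin with ENSRNA held 10.66%, 6.84% and 3.33% of all counts in mutant without JA. In wild type without JA they held 1.13%, 3.61% and 2.59%. The part of this difference in the numbers over all features was not tested. Which reading of the labels is right was not settled by these numbers of features. The feature that met the rule for a check of the genotype label, ENSRNA049478188, averaged 48.3 ± 11.8 CPM in the mutant and 2.95 ± 2.38 CPM in wild type there (SD, n = 3 each), and ranged from 2.75 to 671.6 CPM in mutant with JA, from 44.9 to 1897 CPM in mutant without JA, from 18.0 to 195.3 CPM in wild type with JA and from 33.7 to 336.7 CPM in wild type without JA. In the IAA experiment, which holds wild type alone, it averaged 48.4 ± 36.2 CPM with IAA and 81.2 ± 68.8 CPM without (SD, n = 3 each), at or above the mutant level of the genotype experiment.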
